A study of Mus musculus with 104 samples.

Results

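Aminoacyl-tRNA synthetases are the enzymes that attach each amino acid to its matching tRNA. The 36 synthetase genes described here comprise 20 cytosolic and 16 mitochondrial enzymes. They were taken by symbol from 24060 genes counted against RefSeq, where Mars1 is listed as Mars. Differences between mouse lines had been seen for some of these genes before they were listed, so the values of the lines Tbc1d8 and Gsg1l chose the members. Their differences are given as a description: genes past a threshold are counted there, but the counts are no independent test.

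The RNA came from dissected cerebral cortex of wild type C57BL/6 mice aged 6 months, 52 females and 52 males, and was sequenced in bulk. The animals belong to 13 lines that the labels name after genes: Tbc1d8, Gsg1l, Arpp19, Dach1, Ece2, Hrk, Kdm3b, Morf4l1, Pcdh20, Ppp1ca, Rasgef1a, Rgs9 and Zswim6, each with 4 females and 4 males. No mutant allele and no treatment is given for any animal, so every group, those used for comparison included, is wild type. The labels give the line names as batches, and line and batch cannot be told apart. Litters are not given, and the p-values treat every mouse as independent.

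Library totals ran from 3.39 M to 33.5 M reads over the RefSeq genes, with a median of 28.4 M. The smallest library was Kdm3b female 22, and the next smallest held 23.9 M. Sex-linked genes went against the label in 3 libraries, Rasgef1a female 39, Rasgef1a male 40 and Rgs9 female 43. Rasgef1a female 39 held 2 Xist reads and 0 reads of the Y-linked genes, thus neither the female nor the male signal. Rasgef1a male 40 and Rgs9 female 43 held the signal of the other sex. For the synthetases, Gsg1l female 14 stood apart from its line, and so did Dach1 female 5, female 7 and male 7, which were singled out after their values were seen. Plate 2 held 8 libraries, among them Dach1 female 5 and male 7, Tbc1d8 males 45 and 47 and Gsg1l female 16. Cortical neurons were represented throughout, with Slc17a7, the vesicular glutamate transporter of cortical neurons, at 427 to 539 FPKM over all libraries (fragments per kilobase of gene, scaled to library size).

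Cytosolic synthetases charge the tRNAs used by cytosolic ribosomes, and a separate nuclear-encoded set, mostly named with a final 2, is imported to charge tRNAs inside mitochondria. When charged tRNA runs short, the kinase GCN2 phosphorylates translation factor eIF2, and translation of the transcription factor ATF4 increases. ATF4 is known to induce many cytosolic synthetases together with amino acid transporters and biosynthetic enzymes, through composite sites near their promoters. In neurons, which translate far from the cell body, inherited changes in several human synthetases, GARS and YARS among them, are known to cause peripheral neuropathy.

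Of the 8 cytosolic members that differed most between the 13 lines, the 4 whose promoter windows carry the letters of that composite site are shown. RefSeq windows on GRCm38.p6, from 250 bases before to 50 bases after the start, matched 27 of the 36 members by symbol, 13 cytosolic and 14 mitochondrial. The motif TGATGNAA, or TTNCATCA when read on the opposite strand, was found in 5 cytosolic members, Aars, Gars, Iars, Tars and Yars, and in 0 mitochondrial members. It occurred in 1304 of 32851 windows of this length, which is 3.97%. Among the 8 members that differed most, the windows of Sars and Mars1 held 0 matches. Nars and Cars had no window matched by symbol, so they were not searched. Capitals mark the match in each sequence, which is written 5′ to 3′ on the plus strand, the coding strand of all 4 genes. The matches of Yars and Iars begin 3 and 7 bases after the start, that of Gars begins 30 bases before it, and those of Aars begin 112 bases before and 9 bases after it. A match describes these letters and is no evidence of binding.
Yars, tyrosyl-tRNA synthetase, chr4:129189653-129189952: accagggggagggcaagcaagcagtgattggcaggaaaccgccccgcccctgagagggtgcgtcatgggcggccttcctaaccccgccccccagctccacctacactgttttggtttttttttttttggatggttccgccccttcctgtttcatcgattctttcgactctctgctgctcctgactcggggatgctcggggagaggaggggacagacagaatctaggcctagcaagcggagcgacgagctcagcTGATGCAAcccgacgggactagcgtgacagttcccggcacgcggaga
Gars, glycyl-tRNA synthetase, chr6:55037751-55038050: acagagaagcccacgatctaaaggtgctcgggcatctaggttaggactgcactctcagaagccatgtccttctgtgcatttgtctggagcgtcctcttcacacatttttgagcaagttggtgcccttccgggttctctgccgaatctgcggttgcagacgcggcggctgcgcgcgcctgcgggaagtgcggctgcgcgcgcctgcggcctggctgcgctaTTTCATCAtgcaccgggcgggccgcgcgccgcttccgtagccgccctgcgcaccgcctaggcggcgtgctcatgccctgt
Aars, alanyl-tRNA synthetase, chr8:111033592-111033891: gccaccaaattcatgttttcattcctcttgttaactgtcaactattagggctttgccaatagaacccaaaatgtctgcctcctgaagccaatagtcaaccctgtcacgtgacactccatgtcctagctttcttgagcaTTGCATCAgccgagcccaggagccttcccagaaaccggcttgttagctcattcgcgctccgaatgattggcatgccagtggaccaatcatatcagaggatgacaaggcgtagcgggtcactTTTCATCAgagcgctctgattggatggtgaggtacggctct
Iars, isoleucyl-tRNA synthetase, chr13:49681880-49682179: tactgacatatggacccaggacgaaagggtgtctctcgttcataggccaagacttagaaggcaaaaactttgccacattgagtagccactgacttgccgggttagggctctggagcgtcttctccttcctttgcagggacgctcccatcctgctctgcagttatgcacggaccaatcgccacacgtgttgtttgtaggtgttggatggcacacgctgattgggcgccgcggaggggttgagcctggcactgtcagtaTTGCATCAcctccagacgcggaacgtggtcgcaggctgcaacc

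All 36 members had reads in every library and passed the filter on low counts. Levels between genes were compared in FPKM, which is scaled to gene length. The cytosolic members had a median of 19.2 FPKM over genes and ran between 11.7 FPKM for Tars, threonyl-tRNA synthetase, and 91.8 FPKM for Nars, asparaginyl-tRNA synthetase. Aars at 60.4 ± 3.80, Gars at 56.9 ± 3.79 and Sars, seryl-tRNA synthetase, at 51.9 ± 2.78 FPKM came next among them (SD over all libraries, 52 females and 52 males). The mitochondrial members had a median of 6.78 FPKM and a lowest mean of 2.15 FPKM, for Wars2. Lars2, mitochondrial leucyl-tRNA synthetase, was the exception at 153 ± 17.7 FPKM, above every cytosolic member, and the tables do not show where in the gene its reads lie. Gars and Kars, lysyl-tRNA synthetase, have no mitochondrial counterpart gene and serve both compartments; Kars stood at 24.5 ± 1.2 FPKM.

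**Figure D1:**
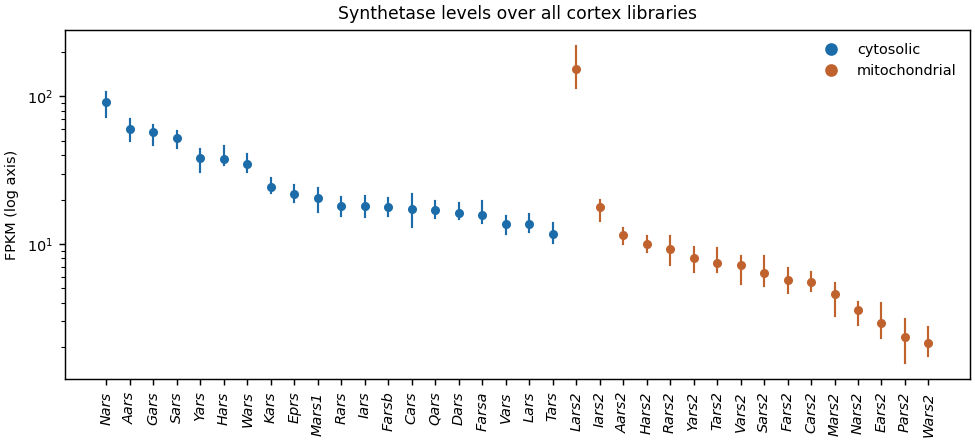
Mean level of each of the 36 synthetase genes in FPKM on a log axis, with vertical lines from the lowest to the highest of all libraries, cytosolic members on the left and mitochondrial members on the right. Lars2 at 153 FPKM and Nars at 91.8 FPKM are the 2 highest, and Wars2 at 2.15 FPKM is the lowest.

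Cytosolic synthetases were lower in both lines that chose the members, while most mitochondrial ones were not. The log2 difference of each gene between a line and the mean of the other 12 lines was fitted in edgeR's quasi-likelihood framework. A gene counts as past the threshold at an adjusted p (Benjamini-Hochberg) under 0.05 over 15723 genes. In Tbc1d8, 13 of 20 cytosolic members were lower past it, 1 was higher and 6 did not pass; of all genes tested, 6.79% were lower and 5.66% higher. In Gsg1l the counts were again 13 lower, 1 higher and 6 not past it, with 5.58% of all genes lower and 4.86% higher. The median difference of the cytosolic members was -0.12 in Tbc1d8 and -0.09 in Gsg1l, beside 0.005 and 0.006 over all genes. Of the 16 mitochondrial members, 2 were lower in each line, 1 was higher in Tbc1d8 and 0 in Gsg1l, with medians of 0.04 and 0.02. Both lines held the 2 lowest of the 13 line means for 16 cytosolic and 3 mitochondrial members, and the 2 highest for 3 cytosolic (Farsa, Hars, Qars) and 3 mitochondrial members (Cars2, Hars2, Tars2). The 2 comparisons share 11 lines as their reference, and since these contrasts were used to list the genes, the counts are read as a description only.

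The 8 cytosolic members with the largest F over the 13 lines show how far single libraries separated. Values in CPM (counts scaled to library size) are given as the lowest, the median and the highest library, with 8 libraries per line and 88 in the other 11 lines. Nars stood at 189, 206 and 217 CPM in Tbc1d8, at 197, 209 and 249 CPM in Gsg1l and at 210.2, 250.3 and 282 CPM in the other lines. Its log2 difference was -0.26 ± 0.03 in Tbc1d8 and -0.21 ± 0.03 in Gsg1l (standard error). All 16 libraries lay below the median of the 88, and 6 of Tbc1d8 and 4 of Gsg1l lay below every one of them, so the groups overlapped only in part.

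Cars, cysteinyl-tRNA synthetase, had the largest differences of the family, -0.34 ± 0.04 in Tbc1d8 and -0.27 ± 0.04 in Gsg1l. It stood at 42.9, 44.8 and 47.8 CPM in Tbc1d8, at 42.1, 46.8 and 54.6 CPM in Gsg1l and at 42.2, 57.8 and 69.2 CPM in the other lines. All 16 libraries were again below the median of the 88, but only 1, of Gsg1l, was below their lowest, since Dach1 female 5 stood at 42.2 CPM. Yars stood at 87.9, 93.0 and 98.0 CPM in Tbc1d8, at 88.8, 95.5 and 114 CPM in Gsg1l and at 92.7, 113 and 126 CPM in the other lines, with differences of -0.26 ± 0.03 and -0.17 ± 0.03. Here 4 Tbc1d8 libraries and 1 Gsg1l library lay below all 88, and 1 Gsg1l library, female 14, lay above their median.

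Gars stood at 109.9, 119.8 and 122 CPM in Tbc1d8, at 112.5, 121 and 138 CPM in Gsg1l and at 117, 139 and 151 CPM in the other lines. The differences were -0.21 ± 0.02 and -0.17 ± 0.02, and 2 libraries of each line lay below all 88. Aars stood at 183, 198 and 213 CPM in Tbc1d8, at 191, 204 and 226 CPM in Gsg1l and at 201.1, 229 and 258 CPM in the other lines, with differences of -0.21 ± 0.02 and -0.12 ± 0.02. Of its libraries, 7 of Tbc1d8 and 2 of Gsg1l lay below all 88, the widest separation among these genes in Tbc1d8. An exon stretch of 1326 bases of Aars is shared with Exosc6 on the same strand in GENCODE vM21. Exosc6 was counted at a mean of 6.15 CPM, and how reads in shared stretches were counted is not given in the sources used here.

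Iars stood at 66.8, 68.7 and 71.7 CPM in Tbc1d8, at 66.1, 70.65 and 74.5 CPM in Gsg1l and at 69.7, 80.45 and 94.5 CPM in the other lines. The differences were -0.22 ± 0.03 and -0.18 ± 0.03, and 5 Tbc1d8 and 4 Gsg1l libraries lay below all 88. Sars stood at 163.5, 171 and 181 CPM in Tbc1d8, at 166, 175 and 193 CPM in Gsg1l and at 175, 195 and 214 CPM in the other lines, with differences of -0.17 ± 0.02 and -0.125 ± 0.02. Its separation was close to that of Nars, with 6 Tbc1d8 and 4 Gsg1l libraries below all 88. Mars1, methionyl-tRNA synthetase, stood at 49.7, 54.2 and 57.4 CPM in Tbc1d8, at 50.8, 56.0 and 59.8 CPM in Gsg1l and at 50.5, 61.65 and 70.8 CPM in the other lines, with differences of -0.17 ± 0.03 and -0.12 ± 0.03. All 16 of its libraries were below the median of the 88 and 1 was below their lowest. Mars1 shares 68 exon bases with Ddit3 on the opposite strand; the kit was stranded per the labels, and the strand setting of the counting is not given in the sources used here.

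**Figure D2:**
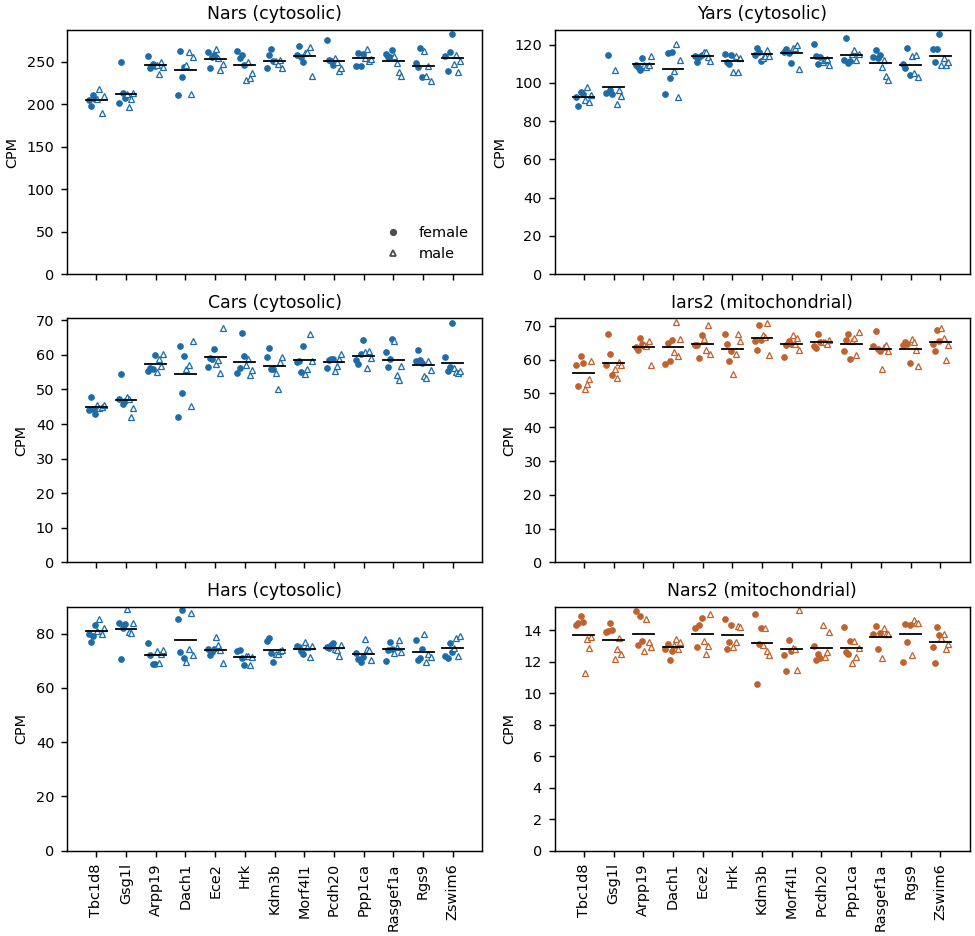
CPM of 6 synthetases in each library by line, with Tbc1d8 and Gsg1l on the left, filled circles for females, open triangles for males and a bar at each line's mean. Nars, Yars, Cars and Iars2 are low in Tbc1d8 and in most Gsg1l libraries, Hars is high in them, Nars2 spans 10.6 to 15.3 CPM with no such shift, and 3 Dach1 libraries lie with Tbc1d8 and Gsg1l for Cars and Hars.

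Of the remaining cytosolic members, 5 were lower past the threshold in Tbc1d8. These were Vars at -0.12 ± 0.03, Tars at -0.12 ± 0.03, Rars at -0.12 ± 0.03, Lars at -0.10 ± 0.03 and Eprs, the fused glutamyl- and prolyl-tRNA synthetase, at -0.095 ± 0.02. In Gsg1l, Eprs at -0.11 ± 0.02, Wars at -0.095 ± 0.02, Rars at -0.09 ± 0.03, Tars at -0.09 ± 0.03 and Lars at -0.08 ± 0.03 were lower, while Vars at -0.045 ± 0.03 did not pass. Dars, Kars and Qars, and Farsa and Farsb, which encode the subunits of phenylalanyl-tRNA synthetase, passed in neither line and had differences between -0.08 and 0.07.

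Hars, histidyl-tRNA synthetase, was the cytosolic member that was higher, by 0.12 ± 0.025 in Tbc1d8 and 0.13 ± 0.025 in Gsg1l. It stood at 76.9, 80.5 and 85.3 CPM in Tbc1d8, at 70.5, 82.65 and 88.95 CPM in Gsg1l and at 68.4, 73.65 and 88.7 CPM in the other lines. All 8 Tbc1d8 libraries and 7 of Gsg1l lay above the median of the 88, with 1 Gsg1l library above their highest and female 14 below their median. Hars shares 195 exon bases with its mitochondrial neighbour Hars2 on the opposite strand, and Hars2 had differences of 0.05 ± 0.03 and 0.07 ± 0.03 that did not pass.

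Among mitochondrial members, Iars2 and Mars2 were the ones lower in each line. Iars2, mitochondrial isoleucyl-tRNA synthetase, stood at 51.4, 56.3 and 61.2 CPM in Tbc1d8, at 54.7, 58.4 and 67.6 CPM in Gsg1l and at 55.9, 64.6 and 71.2 CPM in the other lines. Its differences were -0.19 ± 0.03 and -0.11 ± 0.03, and 4 Tbc1d8 and 2 Gsg1l libraries lay below all 88. Iars2 shares 2034 exon bases with Rab3gap2 on the opposite strand, and Rab3gap2 differed by -0.06 and -0.09, so if strand was not used their reads cannot be told apart. Mars2, mitochondrial methionyl-tRNA synthetase, stood at 10.3, 11.7 and 12.8 CPM in Tbc1d8, at 9.15, 12.3 and 13.65 CPM in Gsg1l and at 10.7, 13.4 and 15.8 CPM in the other lines, with differences of -0.18 ± 0.04 and -0.14 ± 0.04. Most of its range overlapped, and 1 library of each line lay below all 88.

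Sars2, mitochondrial seryl-tRNA synthetase, had the third largest F among mitochondrial members and passed in neither line. It stood at 10.7, 11.4 and 12.5 CPM in Tbc1d8, at 10.8, 11.6 and 13.35 CPM in Gsg1l and at 10.1, 12.2 and 15.9 CPM in the other lines, with differences of -0.10 ± 0.04 and -0.03 ± 0.04. Its groups overlapped throughout. Aars2, mitochondrial alanyl-tRNA synthetase, was 0.085 ± 0.03 higher in Tbc1d8, at 38.7, 40.8 and 42.25 CPM against 33.7, 38.5 and 42.8 CPM in the other lines, and its Gsg1l difference was -0.002 ± 0.03. The other 13 mitochondrial members, Sars2 included, had differences between -0.11 and 0.135 in Tbc1d8 and did not pass.

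**Figure D3:**
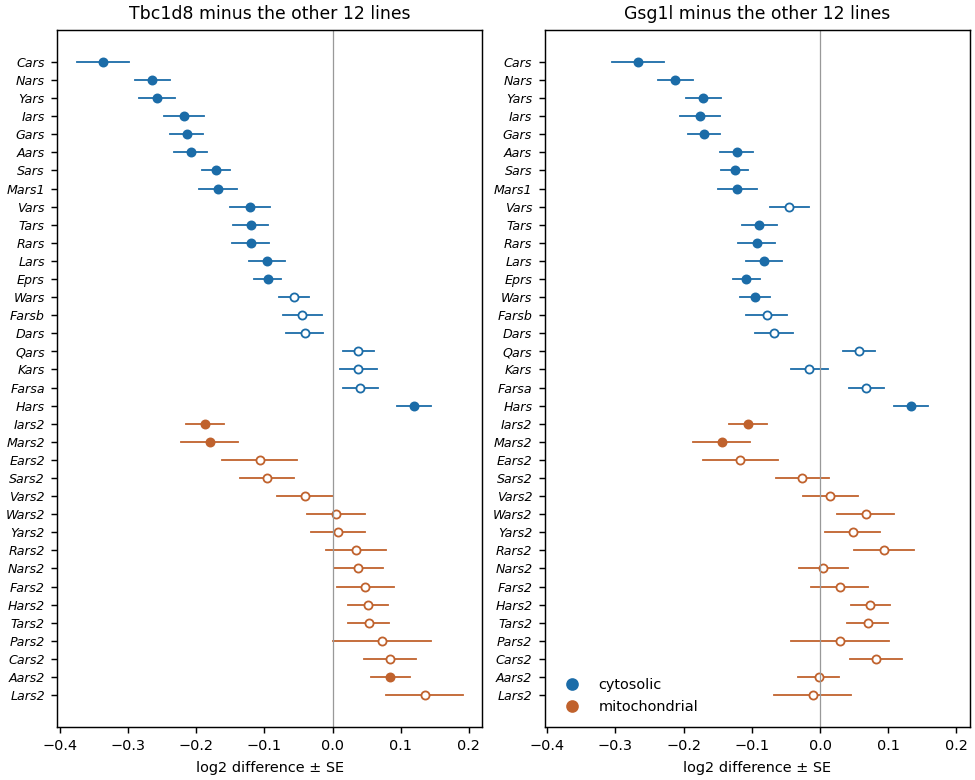
Log2 difference of each synthetase between Tbc1d8 (left) or Gsg1l (right) and the mean of the other 12 lines, with bars of 1 standard error, cytosolic members above and mitochondrial members below; filled points passed an adjusted p of 0.05 over all genes. Cars is lowest at -0.34 and -0.27, Hars is the highest cytosolic member at 0.12 and 0.13, and Iars2 and Mars2 are the filled mitochondrial points left of 0 in both panels.

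Enzymes for the same amino acid in different compartments were set side by side. Nars was at -0.26 and -0.21 in Tbc1d8 and Gsg1l and Nars2 at 0.04 and 0.005. Cars was at -0.34 and -0.27 and Cars2 at 0.08 and 0.08, and Yars was at -0.26 and -0.17 and Yars2 at 0.01 and 0.05. In the isoleucine and methionine pairs alone both enzymes were lower past the threshold in each line. Grouped by fold, class I synthetases, which share a Rossmann nucleotide-binding fold, had 8 of 10 cytosolic members lower in each line, and class II, built on an antiparallel sheet, had 5 of 10. The fused enzyme gene Eprs, lower in each line, was counted in class I alone. Of the 8 cytosolic enzyme genes whose products sit in the multisynthetase complex, 5 were lower in each line, against 8 of the 12 outside it. The scaffold genes of that complex, Aimp1, Aimp2 and Eef1e1, gave 0 of 3 past the threshold in either line.

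Genes of the amino acid response were lower too in these lines, whereas other parts of tRNA use mostly did not pass. Of 23 response genes, 13 were lower and 0 higher in each line, with medians of -0.24 in Tbc1d8 and -0.20 in Gsg1l. Of all genes tested, 6.79% were lower in Tbc1d8 and 5.58% in Gsg1l. These lists too were chosen with earlier results of these data known, so their counts are a description and no independent test. Atf4 stood at 102, 109.0 and 119.7 CPM in Tbc1d8, at 106, 117 and 136 CPM in Gsg1l and at 108, 153 and 187 CPM in the other lines. Its lowest library among the 88 was in Dach1. Asns, asparagine synthetase, was at -0.40 ± 0.035 and -0.285 ± 0.035, and Slc7a1, a cationic amino acid transporter, at -0.33 ± 0.04 and -0.29 ± 0.04. Among 8 tested genes that act on eIF2, Eif2ak4, which encodes GCN2, was higher at 0.09 ± 0.03 and 0.10 ± 0.03, Eif2ak1 was lower at -0.08 ± 0.02 and -0.08 ± 0.02, and Ppp1r15b, an eIF2 phosphatase subunit, was at -0.125 ± 0.03 and -0.09 ± 0.03, past the threshold in Tbc1d8. Impact, which restrains GCN2, was at -0.06 ± 0.02 and -0.08 ± 0.02, past it in Gsg1l.

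The tRNA exportin gene Xpot was lower past the threshold in both lines, at -0.07 ± 0.02 in Tbc1d8 and -0.07 ± 0.02 in Gsg1l. Of 6 genes of cytosolic elongation, 0 passed in Tbc1d8 and 1 in Gsg1l, Eef2 at -0.07 ± 0.02. Of 6 genes of mitochondrial elongation, Gfm2 passed in Tbc1d8 at 0.09 ± 0.03 and Gfm1 in Gsg1l at -0.09 ± 0.03. Of 6 genes of tRNA export and maturation, Xpot included, Elac1, which trims tRNA 3′ ends, was higher in Gsg1l at 0.105 ± 0.035. Of 5 genes of the selenocysteine route, 0 passed in Tbc1d8 and 1 in Gsg1l, the elongation factor gene Eefsec at 0.12 ± 0.03. None of 4 genes of the mitochondrial amidotransferase and formylation route and none of 6 editing and deacylation genes passed in either line.

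Marker levels of other cells were set beside these differences. All 8 oligodendrocyte markers had negative differences in both lines and 0 of 8 passed, with summed levels of 1810 to 2238 CPM in Tbc1d8, 1769 to 2496 CPM in Gsg1l and 1459 to 2612 CPM in the other lines. Microglial markers summed to 298 to 381 CPM in Tbc1d8, 316 to 370.2 CPM in Gsg1l and 276 to 369 CPM in the other lines, with 0 of 7 markers past the threshold in Tbc1d8 and 1 higher in Gsg1l. In either line, 0 of 7 astrocyte, 0 of 6 endothelial and 0 of 5 tested choroid plexus markers passed, and the 1 erythroid marker tested did not pass. Of 8 striatal markers, 1 was higher in each line, Ppp1r1b at 0.145 ± 0.03 in Tbc1d8 and 0.175 ± 0.03 in Gsg1l, and 1 was lower, Penk at -0.25 ± 0.07 and -0.23 ± 0.07. Of 7 interneuron markers, 1 was lower in each line, the GABA transporter gene Slc32a1 at -0.11 ± 0.03 and -0.09 ± 0.03, and of 5 hippocampal markers 1 was higher in Tbc1d8, Wfs1 at 0.22 ± 0.07, and 0 passed in Gsg1l. Among neuronal markers, Slc17a7 at 0.08 ± 0.02 and 0.07 ± 0.02 and the kinase gene Camk2a at 0.10 ± 0.02 and 0.08 ± 0.02 were higher in both lines. Rbfox3, a neuronal splicing factor, was lower in Tbc1d8 at -0.08 ± 0.02 and stood at 0.01 ± 0.02 in Gsg1l. Neuronal markers went both ways, with differences from -0.124 to 0.10 in Tbc1d8 and from -0.152 to 0.08 in Gsg1l. Not every neuronal marker past the threshold is named. The part of these lists in the synthetase differences was not tested, apart from a fit with 4 of the marker levels as terms. With the striatal, oligodendrocyte, choroid plexus and erythroid marker levels as covariates, 15 of the 36 members were lower in each line, as without them. The erythroid level rested on 1 tested marker. Neuronal, interneuron, hippocampal, astrocyte, microglial and endothelial levels were not terms of this fit, so their part was not tested. In bulk tissue, fewer cells of a type and less RNA per cell cannot be told apart. Gsg1l female 14 stood at 249 CPM for Nars, 54.6 CPM for Cars and 70.5 CPM for Hars, and without it 17 members were lower in Gsg1l. In females alone, which include that library, 6 members were lower in Gsg1l, and in males alone 12. Both single-sex fits hold fewer libraries, and the share of all genes that passed in them is not given.

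The other 11 lines, whose differences from each other chose no member, were compared among themselves. No synthetase was called different between them: 0 of 36 passed edgeR's quasi-likelihood F-test over these lines, in which 0.121% of all genes passed (19 of 15723). The unadjusted p was under 0.05 for Hars, Tars and Yars, and the lowest adjusted p was 0.435, for Tars. limma on log2 FPKM likewise passed 0 members. Set against the mean of the other 10, each line gave 0 members past the threshold, with 0.273% of all genes passing in Dach1, 0.0636% in Rasgef1a, 0.0254% in Rgs9, 0.0191% in Pcdh20, 0.00636% in Arpp19 and 0 in Ece2, Hrk, Kdm3b, Morf4l1, Ppp1ca and Zswim6. The lowest adjusted p was 0.0817, for Tars in Rasgef1a, and differences lay between -0.095, for Rars2 in Rgs9, and 0.12, for Ears2 in Ece2.

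Dach1 was mixed within the line. Cars stood at 42.2 CPM in female 5, 49.1 CPM in female 7 and 45.2 CPM in male 7, while the other 5 Dach1 libraries stood between 55.9 and 64.1 CPM. Nars stood at 210.2, 231 and 211 CPM in the same 3 libraries and between 244 and 263 CPM in the other 5. Hars, which was high in Tbc1d8 and Gsg1l, stood at 85.4, 88.7 and 87.5 CPM in them and between 69.7 and 74.3 CPM in the other 5. For these genes the 3 libraries lay on the Tbc1d8 side of the median of the 88. Female 7 still lay above the highest Tbc1d8 library for Nars, 217 CPM, and for Cars, 47.8 CPM. Not every member low in Tbc1d8 had such values in the 3 libraries. Tars stood at 30.8, 31.2 and 30.1 CPM in them, where the median was 28.75 CPM in Tbc1d8 and 30.9 CPM in the 88 libraries. Female 5 and male 7 were on plate 2 and female 7 on plate 1. As a whole line, Dach1 differed by -0.09 ± 0.04 for Cars (adjusted p = 0.424) and -0.09 ± 0.03 for Mars1 (adjusted p = 0.186) in the edgeR quasi-likelihood fit.

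Within the 11 lines, synthetase levels were then related to the level of Atf4 RNA in the same library, with line and sex as terms. ATF4 protein was not measured. The slope is the log2 change of a gene per log2 unit of Atf4. Of the 36 members, 16 had a positive slope past the threshold and 5 a negative one by edgeR's quasi-likelihood test, where 10.9% of all genes tested passed in each direction. Cytosolic members gave 14 positive and 2 negative slopes with a median of 0.20, mitochondrial members 2 positive and 3 negative with a median of -0.10, beside -0.001 over all genes. The lowest Atf4 levels, centred on line and sex, were those of Dach1 male 7 at -0.37, female 5 at -0.26 and female 7 at -0.21. Without that line, 8 members were positive and 7 negative, where 13.8% and 13.6% of all genes passed. Cytosolic members then gave 7 positive and 2 negative slopes with a median of 0.11, and mitochondrial members 1 positive and 5 negative with a median of -0.06, beside -0.003 over all genes.

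Cars had the steepest positive slope at 0.62 ± 0.07 (adjusted p = 1.83e-10), and it was 0.50 without Dach1 (adjusted p = 1.67e-05). Iars followed at 0.46 ± 0.06 (adjusted p = 1.12e-08, and 0.44 without Dach1). Yars2, mitochondrial tyrosyl-tRNA synthetase, had 0.39 ± 0.09 (adjusted p = 0.000831), and Farsb had 0.33 ± 0.065 (adjusted p = 0.000123). These 4 members, with Tars, Kars, Eprs and Wars, kept their call without Dach1 in edgeR's quasi-likelihood test. Mars2, at 0.29 ± 0.10 (adjusted p = 0.0203), lost its call without Dach1, with a slope of 0.21 (adjusted p = 0.218).

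Several members lost their positive slope call without Dach1. Nars had a slope of 0.27 ± 0.06 with Dach1 and 0.12 without it (adjusted p = 0.25), Gars 0.22 ± 0.055 and 0.105 (adjusted p = 0.298) and Yars 0.24 ± 0.06 and 0.09 (adjusted p = 0.332) in the edgeR quasi-likelihood fit. Mars1 had 0.25 ± 0.07 and 0.14 (adjusted p = 0.225), Rars 0.21 ± 0.07 and 0.10 (adjusted p = 0.423) and Sars 0.19 ± 0.045 and 0.095 (adjusted p = 0.245). The slope of Dars was of like size without Dach1, 0.20 ± 0.07 with it and 0.21 without it, although it no longer passed (adjusted p = 0.0944). Hars had -0.23 ± 0.06 with Dach1 and 0.02 without it (adjusted p = 0.865).

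The negative slopes were led by mitochondrial members. Pars2, mitochondrial prolyl-tRNA synthetase, had -0.50 ± 0.18 (adjusted p = 0.0331) and Vars2, mitochondrial valyl-tRNA synthetase, -0.46 ± 0.09 (adjusted p = 0.000129) in the edgeR quasi-likelihood fit. Vars2 stood at 23.9, 32.05 and 36.3 CPM in the 88 libraries, and its slope was -0.70 without Dach1 (adjusted p = 2.2e-06). Pars2 was a low gene, with 31 to 291 reads per library, and its slope was -0.95 without Dach1 (adjusted p = 0.00159). The Pars2 call ended without Arpp19 (adjusted p = 0.0615), Hrk (0.0693), Kdm3b (0.0793), Pcdh20 (0.0537), Ppp1ca (0.111) or Rasgef1a (0.159). It also ended with marker levels as covariates (adjusted p = 0.0805), in limma on log2(FPKM + 1) (0.0535) and log2(FPKM + 0.1) (0.0537), in females alone (0.304) and in males alone (0.42), while that of Vars2 ended only in females alone (adjusted p = 0.0768) and males alone (0.0733) among the alternatives run. Rars2 at -0.295 ± 0.10 and Qars, cytosolic glutaminyl-tRNA synthetase, at -0.19 ± 0.06 also passed with and without Dach1. Without it, 3 further members had a negative slope past the threshold in edgeR: Iars2 at -0.32 (adjusted p = 0.00121), against -0.05 ± 0.07 with it, Sars2 at -0.41 (adjusted p = 0.0124), against -0.20 ± 0.10, and Vars at -0.27 (adjusted p = 0.0314), against -0.13 ± 0.075. The Iars2 slope did not pass with Dach1, and leaving that line out was chosen after the data were seen. The relation of Iars2 to Atf4 in Tbc1d8 and Gsg1l was not tested. In females alone 5 members were positive and 0 negative, and in males alone 5 were positive and 1 negative. These fits hold fewer libraries, and the share of all genes that passed in them is not given.

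**Figure D4:**
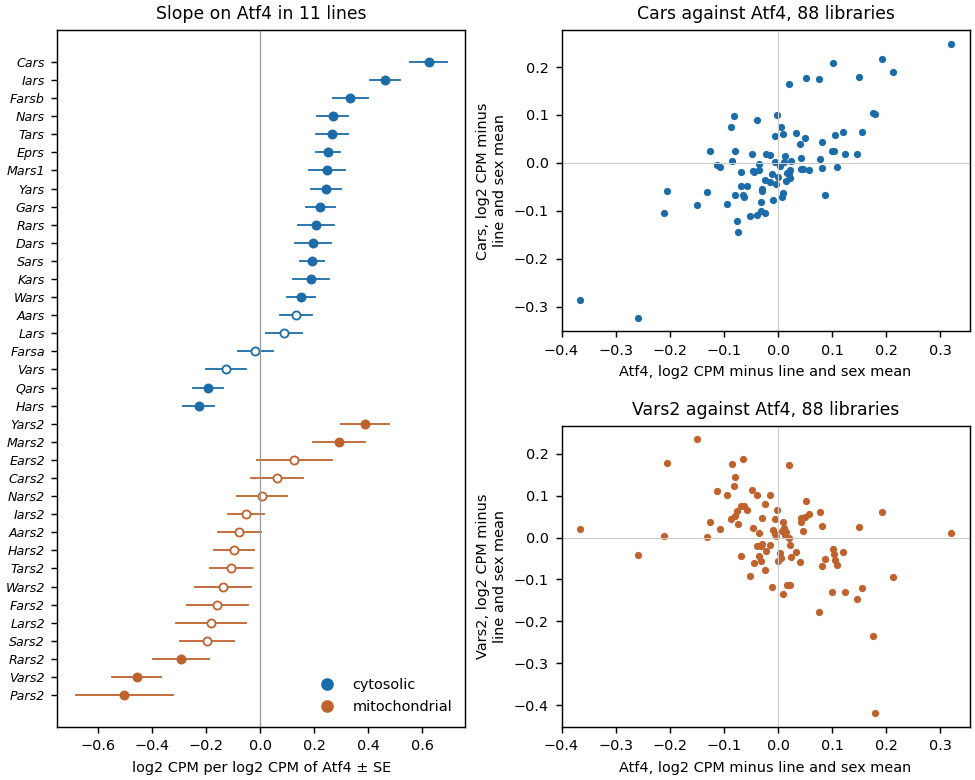
Left, slope of each synthetase on the library level of Atf4 within the 11 lines, in log2 CPM per log2 CPM with bars of 1 standard error, filled where it passed an adjusted p of 0.05. Right, Cars and Vars2 against Atf4 in the 88 libraries, each as log2 CPM minus the mean of its line and sex; Cars rises with Atf4, with Dach1 male 7 and female 5 at the lower left, and Vars2 declines.

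Of the 22 other amino acid response genes, 13 had a positive slope past the threshold and 0 a negative one. Of all genes tested, 10.9% passed in each direction. Slc7a1 had 0.41 ± 0.08 (adjusted p = 0.000101) and Asns 0.30 ± 0.07 (adjusted p = 0.00107) in the edgeR quasi-likelihood fit. Of the complex scaffold genes, Eef1e1 was positive at 0.41 ± 0.105 (adjusted p = 0.00291) by that test, while Aimp1 at 0.08 ± 0.08 and Aimp2 at 0.14 ± 0.09 did not pass. The slopes of the response and scaffold genes include the Dach1 libraries, and their values without that line are not given.

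Sex differences of the synthetases were small, and their number was near the share over all genes. Females were compared with males over all libraries as labelled, with line as a term, and 2 of 36 members were higher and 1 lower in females, where 4.07% and 4.5% of all genes tested were. Yars2 stood at 11.2, 12.98 and 15.1 CPM in females and at 10.03, 12.4 and 14.3 CPM in males (lowest, median and highest of 52). It was 0.07 ± 0.02 higher in females (adjusted p = 0.0259 in the edgeR quasi-likelihood fit) and higher in 9 of 13 lines. The ranges overlapped almost whole, and the adjusted p reached 0.0755 without Zswim6, 0.0717 without Kdm3b, 0.0639 without Dach1 and 0.0549 without Tbc1d8.

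Farsa stood at 25.5, 28.3 and 31.3 CPM in females and at 26.5, 29.3 and 35.01 CPM in males. It was lower in females by edgeR's quasi-likelihood test, at -0.05 ± 0.01 (adjusted p = 0.0154) and in 10 of 13 lines, but not past the threshold without Tbc1d8 (adjusted p = 0.0839) or Zswim6 (adjusted p = 0.0685). Wars, tryptophanyl-tRNA synthetase, stood at 87.5, 102 and 116 CPM in females and at 89.85, 99.7 and 110.0 CPM in males, a difference of 0.035 ± 0.01 (adjusted p = 0.0468) that was higher in females in 9 of 13 lines. That call ended under 14 of 26 alternatives, among them leaving out the 3 libraries that went against their sex label (adjusted p = 0.0874). It also ended without Dach1 (adjusted p = 0.0844), Hrk (0.11), Kdm3b (0.0519), Morf4l1 (0.0802), Pcdh20 (0.118), Rasgef1a (0.0549), Rgs9 (0.0883), Tbc1d8 (0.0533) or Zswim6 (0.118). No member was called for a sex difference that varied between lines: 0 of 36 passed the interaction test of edgeR, where 0.0382% of all genes did, limma also passed 0, and the unadjusted p was under 0.05 for Eprs, Sars and Wars2.

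**Figure D5:**
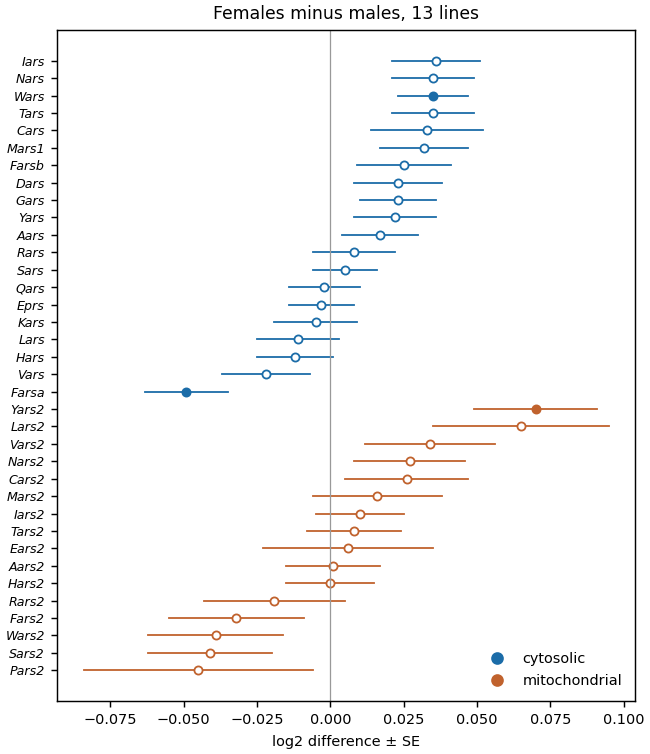
Log2 difference of each synthetase between females and males over the 13 lines, with bars of 1 standard error; filled points passed an adjusted p of 0.05 over all genes. Yars2 at 0.07 and Wars at 0.035 are the filled points to the right of 0 and Farsa at -0.05 the one to the left.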

How the data were processed

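Cortex RNA was sequenced from 52 female and 52 male mice with a stranded TruSeq kit, per the labels' protocols. The authors deposited raw read counts per gene and FPKM values, each against RefSeq and Ensembl gene models. Per the submitters' processing notes, which give no roles, the tools were STAR 2.7.3a and HTSeq 0.10.0 with genome GRCm38 (mm10). The counting mode and FPKM denominator are not given in the sources used here.

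RefSeq counts (24060 genes) were tested with edgeR 4.0.16 (TMM scaling, filter by expression within line and sex, quasi-likelihood test). This left 15723 genes, with Benjamini-Hochberg adjustment over all of them and a threshold of 0.05. Line and sex were terms of the model, and a difference is the tested line minus the mean of the lines it was set against, or females minus males. Standard errors are the log2 difference divided by the square root of F. CPM uses TMM library sizes. The deposited FPKM served for levels between genes and, as log2(FPKM + 1) or log2(FPKM + 0.1), for limma 3.58.1. DESeq2 1.42.0 was an alternative. The Ensembl count table has 1 incomplete line, left out, and 19563 genes were used. The fits were also run on simulated counts with known changes, placed in genes with many reads. These counts had the same spread for every gene and independent mice. They therefore cannot show how the tests act with litters, batches or few reads. Read depth limits precision, and p-values cover the spread between mice only.

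The members and lists were chosen with earlier results of these data known, so the Tbc1d8 and Gsg1l contrasts are descriptions. Named genes were the 8 cytosolic and 3 mitochondrial members with the largest F over the 13 lines, members past the threshold for sex, and the steepest slopes on Atf4, 5 positive and 2 negative. Of each other list at most 3 genes were named by smallest p over the 13 lines. Some others past a threshold were named after their values were seen, but not all. Replicate numbers shared by females and males were not read as pairs. After removing group means, same-numbered libraries correlated at a median of 0.017, from -0.244 to 0.241, which cannot show that no pairs exist. The count over the list of neuronal markers is not reported here. Promoter windows came from RefSeq on GRCm38.p6 and exon overlaps from GENCODE vM21. Alternatives were other scaling, filters, gene models and tools, left-out libraries and lines, each sex and plate 1 alone.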

Additional observations from a re-analysis of the deposited data

Results flagged for a closer look

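Single libraries were checked in 22 groups of 8, for the 11 genes named by F in Tbc1d8 and in Gsg1l, and 3 groups held a library whose gap to its nearest neighbour was large against the range of the group. Chance gives this in about 1 in 20 groups. Gsg1l female 14 stood at 249.0 CPM for Nars, where the Gsg1l median was 209 CPM. The same library stood at 54.62 CPM for Cars, where the Gsg1l median was 46.8 CPM. Tbc1d8 male 47, on plate 2, stood at 109.9 CPM for Gars, below the Tbc1d8 median of 119.8 CPM. No cause was tested for these 3 values.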

How the results depend on the processing

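Of the single-gene values recomputed under the alternatives, 703 kept direction and side of the threshold, 47 were no longer past it and 0 reversed; 178 counts stayed within 1.5 times and 49 moved. Leaving out Gsg1l female 14 and the line Dach1 for the slopes were alternatives chosen after seeing the data. Members lower in Tbc1d8 numbered 12 to 16 over its alternatives. Members higher in Tbc1d8, 2 as reported, were 1 with no filter, 1 on plate 1, 0 in females and 1 in males, and 1 to 2 when each replicate was left out. Members lower in Gsg1l, 15 as reported, were 6 in females, and 13 to 17 when each replicate was left out. Members higher in Gsg1l, 1 as reported, were 2 with Ensembl counts, 2 without female 14, 4 with limma on log2(FPKM + 1), 4 with log2(FPKM + 0.1), 0 in females and 2 against the 11 lines without Tbc1d8, and 1 to 2 when each replicate was left out. Members higher in females, 2 as reported, were 1 with no filter, without the 3 libraries against their labels, without Gsg1l female 14, on plate 1, and without Hrk, Morf4l1, Pcdh20, Rasgef1a or Rgs9, and 0 without Kdm3b, Tbc1d8 or Zswim6. Members lower in females, 1 as reported, were 0 without Tbc1d8 or Zswim6. With the replicate number as a block, 1 member was higher and 1 lower in females. Among the males of their line, 18 of 52 females correlated best with the male of the same number, and the numbers were not read as pairs. Positive slopes on Atf4, 16 as reported, were 10 on plate 1, 5 in females, 5 in males and 8 without Dach1. Negative slopes, 5 as reported, were 3 with tissue scores, 3 with either limma fit, 0 in females, 1 in males, 3 without Arpp19, Pcdh20, Ppp1ca or Rasgef1a and 2 without Hrk. The 11-line test and the sex by line test stayed at 0 members under every alternative run, 24 and 11. The causes of these changes were not tested. Apart from the slopes without Dach1, the share of all genes that passed under each alternative is not given. Depth limits the members with few reads most, Ears2 at 25 to 204 and Pars2 at 31 to 291 reads per library.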
